A study of Mus musculus with 9 samples.

Results

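Splenic follicular B cells of mice homozygous for the ε allele of the heavy chain locus were compared with wild-type follicular B cells across all genes. The comparison used 6 of the 9 arrays of the series, 3 labelled Igh ε/ε VJk5 and 3 labelled Igh wt VJk5, and was chosen by genotype label alone. The 3 remaining arrays, labelled Igh γ1/γ1 VJk5, entered the fit only to estimate the spread. All 3 genotypes were polyclonal mice aged 6 to 12 weeks, kept in a specific pathogen free facility, and cells were sorted from spleen. VJk5 stands in every genotype label and is not explained there, and how the ε and γ1 alleles were built is not given in the sources used here. Each array gave log2 signals of 41345 probe sets, and 1 probe set stood for each of 22180 genes: the brightest over the 9 arrays among those with a single gene symbol. Of these genes 12170 lay above the array median on at least 3 of the 9 arrays and were tested. The labels call the replicates independent but do not say that they are separate animals, so each p-value speaks only of how these samples vary. Values of 3 arrays are given below in the order of replicates 1, 2 and 3.

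The B cell receptor pairs a membrane immunoglobulin with the signalling chains encoded by Cd79a and Cd79b. Naive follicular B cells carry it as IgM and IgD, while ε is the constant region of IgE, an isotype that B cells normally reach only by class switching. Signals from the receptor act through Syk and its adaptor Blnk, raise immediate-early genes through MAP kinases and calcium, and feed NF-κB, and their strength is known to bear on whether a B cell becomes follicular or marginal zone.

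ε/ε replicate 1 stood apart from the other ε/ε arrays in sex-linked genes. Xist, the RNA that silences an X chromosome in females, read 5.25, 10.49 and 10.37 in ε/ε and 10.58, 10.73 and 10.79 in wild-type cells. Eif2s3y, a Y chromosome gene, read 7.40, 5.40 and 3.64 in ε/ε and 2.93, 3.44 and 3.06 in wild-type cells. γ1/γ1 replicate 1, at 4.53, was the other array with low Xist, and the labels give no sex. With a covariate for low Xist, 716 genes were called in place of the 772 given below. The covariate coded ε/ε replicates 2 and 3 like the wild-type arrays, so it does not cover their Y chromosome signal. Of the 141 named genes called, 25 missed the threshold with that covariate.

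The 4 microRNA genes that fell furthest and the 4 that rose furthest are described first, with mature sequences where RefSeq gave one, since the largest differences of either direction included them. Of 484 microRNA genes on the array 164 were tested. Of these 18 rose and 22 fell, a share of 24.4% beside 6.34% of all genes tested. A dim gene could pass the filter through the 3 arrays of the genotype where it was high, which can raise such a share. A probe set of a microRNA gene reads the RNA of its locus, so these values do not measure the mature microRNA. Mir505 read 2.24, 3.35 and 3.11 in ε/ε and 7.32, 7.70 and 7.65 in wild-type cells. Mir103-2, which carries mmu-miR-103-3p, read 6.47, 7.25 and 4.94 in ε/ε and 8.55, 9.17 and 9.26 in wild-type cells. Mir15a, of a microRNA known to target Bcl2, read 4.29, 3.83 and 4.03 in ε/ε and 6.11, 5.76 and 6.63 in wild-type cells. In each of the 3 genes every ε/ε array lay below every wild-type array. Mir505 fell by 4.66 (adjusted p = 5.08e-05, SE 0.27, -4.32 without replicate 1), Mir103-2 by 2.78 (adjusted p = 0.0108, SE 0.47, -2.91 without replicate 1) and Mir15a by 2.12 (adjusted p = 0.00563, SE 0.31, -2.24 without replicate 1) in limma. Mir5104, at 3.95, 4.97 and 4.32 in ε/ε and 6.63, 7.19 and 7.25 in wild-type cells, fell by 2.61 (adjusted p = 0.0137, SE 0.47, -2.38 without replicate 1). Mir103-2 and Mir5104 lost the call on leaving out wild-type replicate 2 or 3 (largest adjusted p 0.0557 and 0.0664). The mature sequences from RefSeq (GRCm38.p6) show which seeds these genes carry, bases 2 to 8 being in capitals.
mmu-miR-505-3p: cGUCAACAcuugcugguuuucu
mmu-miR-505-5p: gGGAGCCAggaaguauugauguu
mmu-miR-103-3p: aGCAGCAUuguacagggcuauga
mmu-miR-103-2-5p: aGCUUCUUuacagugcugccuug
mmu-miR-15a-5p: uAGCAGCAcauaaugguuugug
mmu-miR-15a-3p: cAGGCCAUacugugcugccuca
mmu-miR-5104: cUGUGCUAgugagguggcucagca
No pair of these had the same seed. The seeds of mmu-miR-103-3p and mmu-miR-15a-5p shared the run GCAGCA, 6 of 7 bases, 1 position apart, and no other pair shared more than 4.

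Several of the microRNA genes that rose furthest were neighbours. In the gene order of GRCm38.p6, Mir669m-1, Mir466n, Mir466h, Mir297a-4 and Mir669h followed one another among the genes tested and all 5 rose, the longest run of adjacent genes called in 1 direction. Mir466h read 10.74, 10.76 and 11.02 in ε/ε and 7.49, 7.67 and 7.54 in wild-type cells. Mir297a-4 read 9.12, 7.31 and 8.65 in ε/ε and 4.17, 4.54 and 4.59 in wild-type cells. Both had ε/ε arrays far above the wild-type arrays, and they rose by 3.28 (adjusted p = 3.96e-05, SE 0.17, 3.33 without replicate 1) and 3.93 (adjusted p = 0.00127, SE 0.39, 3.54 without replicate 1). Mir466b-2, of the same family, read 8.69, 6.46 and 7.65 in ε/ε and 4.02, 4.39 and 4.28 in wild-type cells and rose by 3.37 (adjusted p = 0.00522, SE 0.48, 2.82 without replicate 1), with 2.48 for the mean of its probe sets. Mir669m-1 and Mir466n, named after their values were seen, rose by 2.03 (adjusted p = 0.00408, SE 0.28, 1.66 without replicate 1) and 1.76 (adjusted p = 0.00397, SE 0.24, 1.95 without replicate 1). Mir669h, which read 5.92, 3.69 and 5.55 in ε/ε cells, rose by 2.25 (adjusted p = 0.0315, SE 0.52, 1.82 without replicate 1), and it lost the call on leaving out ε/ε replicate 1 or 3, γ1/γ1 replicate 2 or 3 or any wild-type array (largest adjusted p 0.0965). Close copies of these genes exist, and which of them a probe set read is uncertain. Of 13 tested genes of the Mir297, Mir466, Mir467 and Mir669 families 8 rose and 3 fell, where 24.4% of all microRNA genes tested were called.

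Across all genes 772 were called at an adjusted p under 0.05, 283 higher (2.33% of those tested) and 489 lower (4.02%) in ε/ε cells. The median difference was 1.07 among the genes that rose and -0.91 among those that fell, beside -0.013 over all genes tested. The ε/ε and wild-type arrays did not overlap in 771 of the 772, beside 28.4% of all genes tested. A lack of overlap in a called gene, wherever it is stated here, thus adds little to its call. The rule that named the leading protein-coding genes required it. Which genotype had more genes on its side depended on the scaling: under quantile normalization 410 of 710 calls were higher (57.7%) in place of 36.7%. The count also rested on single arrays. Leaving out wild-type replicate 2 brought it to 186, wild-type replicate 3 to 210, wild-type replicate 1 to 512 and ε/ε replicate 1 to 525. With each of the 9 arrays left out in turn, 153 genes were called every time, 60 higher and 93 lower.

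**Figure D1:**
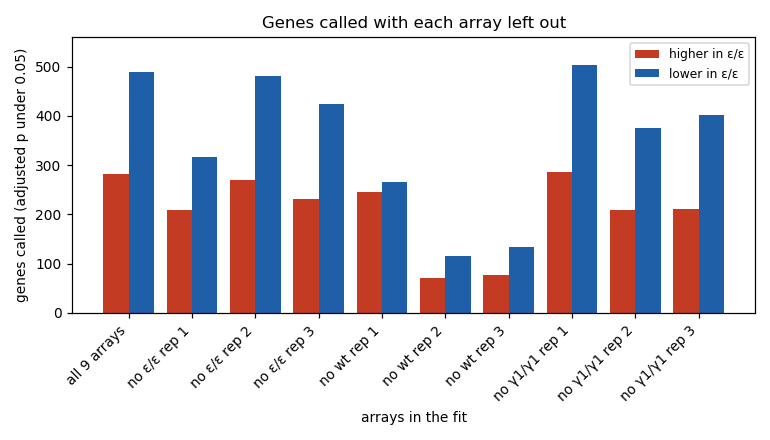
Genes called higher (red) and lower (blue) in ε/ε than in wild-type cells with all 9 arrays and with each array left out. The bars are lowest without wild-type replicate 2 (71 higher, 115 lower) and without wild-type replicate 3 (77 higher, 133 lower).

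Leaving out ε/ε replicate 1 ended calls without turning differences. Without it 525 genes were called (4.31% of those tested), 209 higher and 316 lower, and 438 of these were among the 772. The 334 genes called only with replicate 1 all kept their direction without it. Their differences without replicate 1 were 0.908 of the full size at the median, beside 0.983 for the 438, and 0 of the 334 lost over 50% of their size. Choosing genes called on these same arrays made both the kept direction and the kept size likely beforehand. Replicate 1 was the most extreme of the 3 ε/ε arrays in 389 of the 772 called genes, replicate 2 in 175 and replicate 3 in 208. Over all genes tested the SD of the differences from the wild-type mean was 0.63 on replicate 1, 0.47 on replicate 2 and 0.53 on replicate 3.

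**Figure D2:**
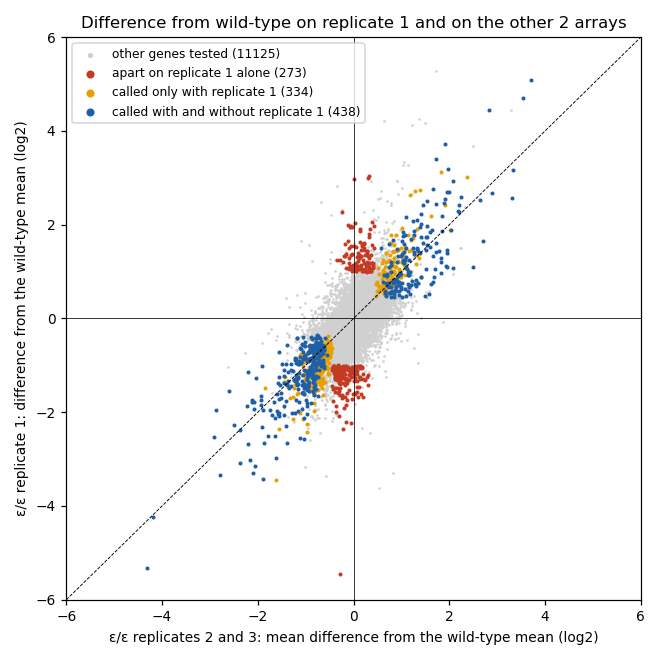
Difference from the wild-type mean on ε/ε replicate 1 (vertical) against the mean of replicates 2 and 3 (horizontal), 1 point a gene, in log2. The 438 genes called with and without replicate 1 (blue) and the 334 called only with it (orange) lie along the dashed line of equal differences, while the 273 genes apart on replicate 1 alone (red) lie along the vertical axis.

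A separate set of genes was apart on 1 ε/ε array alone, meaning a difference from the wild-type mean of at least 1 on that array and under 0.5 on both others. It held 273 genes for replicate 1 (110 higher, 163 lower), 41 for replicate 2 and 123 for replicate 3. No gene of these sets was called, and their definition made a call unlikely. With a size of at least 2 the counts were 11, 0 and 4. The largest difference in the set of replicate 1 was that of Xist, given above, and 5 of the 17 macrophage markers tested were in it. Cd68, a lysosomal glycoprotein of phagocytes, read 8.22, 5.66 and 5.34 in ε/ε and 5.33, 5.34 and 4.86 in wild-type cells. Adgre1, which encodes the F4/80 antigen, read 6.77, 3.91 and 3.72 in ε/ε and 3.64, 4.06 and 3.70 in wild-type cells. Axl, a receptor for dying cells, read 6.77, 4.21 and 3.97 in ε/ε and 3.82, 3.71 and 3.82 in wild-type cells. In each, replicate 1 stood well above the other 5 arrays, and replicates 2 and 3 were within 0.5 of the wild-type mean. Mpeg1, Fcgr1, Selenop and Creg1 had the same shape, with 0.60, 0.70, 0.62 and 0.61 as differences over the 3 arrays and -0.23, 0.03, -0.06 and -0.07 without replicate 1. Among the protein-coding genes of the set that were low on replicate 1, Zfp974 read 3.09, 4.89 and 5.62 and Ccdc125 4.23, 6.19 and 6.37 in ε/ε cells.

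Some macrophage genes were graded over the ε/ε arrays and not confined to replicate 1. C1qb, a chain of complement C1q, read 8.29, 6.13 and 5.09 in ε/ε and 4.19, 4.15 and 4.0 in wild-type cells. Hmox1, which degrades haem and is abundant in red pulp macrophages, read 9.07, 6.09 and 4.93 in ε/ε and 3.90, 3.64 and 3.82 in wild-type cells. Vcam1, an adhesion molecule of these cells, read 8.01, 5.14 and 3.76 in ε/ε and 3.63, 3.99 and 3.79 in wild-type cells. In C1qb and Hmox1 all 3 ε/ε arrays lay above the wild-type arrays, highest on replicate 1 and lowest on replicate 3. Neither was called with all arrays (adjusted p = 0.0505 and 0.0575), and both were without replicate 1, by 1.5 (adjusted p = 0.0367) and 1.73 (adjusted p = 0.0279). Of 17 macrophage and monocyte markers tested 0 were called, and their median difference was 2.04, 0.48 and 0.18 on the 3 ε/ε arrays. Over all 24 markers on the array the median signal was 6.28, 4.06 and 3.71 in ε/ε cells and 3.62 to 3.69 in wild-type cells, close to the median of all probe sets. In bulk samples more cells of a type and more RNA per cell cannot be told apart. The median signal of 16 B cell markers was 8.87, 9.12 and 9.18 on the ε/ε arrays and 9.16, 8.50 and 8.93 on the wild-type arrays. Over 13 T cell markers it was 3.35, 3.11 and 3.40 on the ε/ε arrays and 3.06, 3.19 and 3.29 on the wild-type arrays, and the defining gene Cd3e read at most 3.16. All 3 T cell markers tested lay above 0, with a median of 0.77, 0.042 and 0.34 on the ε/ε arrays, and 0 were called. Lat, an adaptor of T cell signalling, had the smallest p of them and read 5.46, 5.10 and 5.64 in ε/ε and 4.77, 4.41 and 4.74 in wild-type cells, differing by 0.76 (adjusted p = 0.0728). Of 12 neutrophil markers at most 2 lay above the array median on any ε/ε or wild-type array. What part macrophage RNA had in the calls below was not tested. Most brackets below that hold an SE also give the difference without replicate 1.

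**Figure D3:**
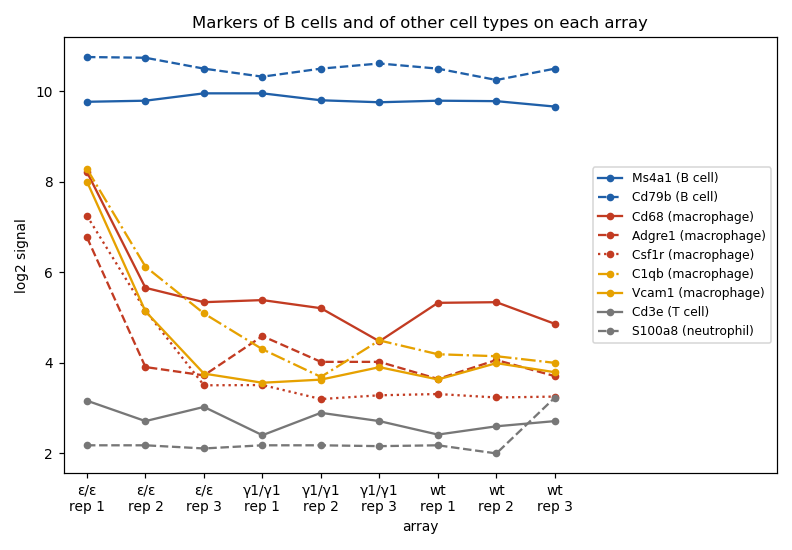
Log2 signal of markers of B cells (blue), macrophages (red and orange) and T cells or neutrophils (grey) on each of the 9 arrays. Cd68, Adgre1, Csf1r, C1qb and Vcam1 peak on ε/ε replicate 1, C1qb, Csf1r and Vcam1 are raised on ε/ε replicate 2 too, and Ms4a1 lies between 9.66 and 9.96.

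Among the protein-coding genes that rose both with and without replicate 1, kinases, a chromatin factor, a peptide hormone and a clock gene were as follows. Plk2, a polo-like kinase of the p53 response, read 6.22, 5.29 and 5.87 in ε/ε and 3.98, 3.50 and 3.56 in wild-type cells. Smarcd1, a subunit of the BAF chromatin remodelling complex, read 8.12, 7.09 and 7.98 in ε/ε and 5.81, 5.91 and 5.24 in wild-type cells. Adm, the precursor of the vasodilator adrenomedullin, read 4.93, 4.79 and 5.07 in ε/ε and 2.82, 3.37 and 3.02 in wild-type cells. These genes rose by 2.12 (adjusted p = 0.00321, SE 0.27, 1.90 without replicate 1), 2.08 (adjusted p = 0.00378, SE 0.27, 1.88 without replicate 1) and 1.86 (adjusted p = 0.00103, SE 0.16, 1.86 without replicate 1). With the mean of its probe sets the difference of Smarcd1 was 1.05. Sik1, a kinase that restrains CREB coactivators, read 6.70, 6.77 and 7.65 in ε/ε and 5.32, 5.14 and 5.29 in wild-type cells and rose by 1.79 (adjusted p = 0.0157, SE 0.34, 1.96 without replicate 1). Ciart, a circadian repressor, read 6.30, 6.27 and 6.63 in ε/ε and 4.24, 4.19 and 4.79 in wild-type cells and rose by 2.0 (adjusted p = 0.0134, SE 0.36, 2.05 without replicate 1). In Sik1 and Ciart replicate 3 was the highest ε/ε array.

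Further genes that rose were highest on replicate 1. Irs2, an adaptor of insulin receptors, read 7.49, 5.73 and 5.87 in ε/ε and 4.53, 3.82 and 3.90 in wild-type cells. Cfp, properdin of the alternative complement pathway, read 7.49, 6.55 and 7.03 in ε/ε and 4.47, 4.90 and 5.02 in wild-type cells. Lgals3bp, a secreted ligand of galectins, read 7.51, 6.27 and 6.82 in ε/ε and 4.93, 4.70 and 5.42 in wild-type cells. Replicate 1 stood highest in each, and replicates 2 and 3 still lay above all wild-type arrays. They rose by 2.28 (adjusted p = 0.0235, SE 0.48), 2.23 (adjusted p = 0.0119, SE 0.38) and 1.85 (adjusted p = 0.0127, SE 0.33), and without replicate 1 the differences were 1.72, 1.99 and 1.53 (adjusted p = 0.0422, 0.036 and 0.0307). With the mean of its probe sets the difference of Lgals3bp was 1.34. Irs2 and Sik1 lost the call on leaving out wild-type replicate 2 or 3 (largest adjusted p 0.102 and 0.0728), and Cfp, Ciart and Lgals3bp without wild-type replicate 2 (0.0505, 0.0669 and 0.0659).

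Among the genes that fell, several act at the B cell surface. Fcmr, the Fc receptor that binds IgM, read 7.27, 8.01 and 7.50 in ε/ε and 9.66, 9.19 and 9.35 in wild-type cells. Ms4a4c, a 4-transmembrane protein of the family of CD20, read 6.35, 7.07 and 6.53 in ε/ε and 8.93, 9.22 and 8.90 in wild-type cells. Alcam, the adhesion molecule CD166, read 3.99, 4.48 and 4.45 in ε/ε and 5.99, 6.18 and 5.94 in wild-type cells. These genes fell by 1.81 (adjusted p = 0.00397, SE 0.24, -1.64 without replicate 1), 2.37 (adjusted p = 0.000655, SE 0.19, -2.21 without replicate 1) and 1.73 (adjusted p = 0.00113, SE 0.16, -1.57 without replicate 1). In gene order Ms4a4c stood beside Ms4a6c, BE692007 and Gm8369, which all fell, a run of 4 neighbours whose other 3 genes were named after their values were seen. Ms4a6c fell by 1.36, BE692007 by 1.37 and Gm8369 by 1.82 (adjusted p = 0.0208, 0.00355 and 0.00127). Ms4a6c lost the call on leaving out ε/ε replicate 3 or any 1 of the wild-type arrays (largest adjusted p 0.0801).

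Enzymes and adaptors were also among the genes that fell. Cmah, which makes the sialic acid Neu5Gc that ligands of CD22 carry, read 6.35, 7.13 and 7.01 in ε/ε and 8.95, 8.83 and 8.78 in wild-type cells. Hsd11b1, which regenerates active glucocorticoid, read 4.81, 5.05 and 5.30 in ε/ε and 6.99, 6.41 and 6.94 in wild-type cells. Ephx1, an epoxide hydrolase, read 4.14, 4.37 and 4.30 in ε/ε and 6.09, 5.75 and 6.40 in wild-type cells. All 3 fell, by 2.02 (adjusted p = 0.00127, SE 0.19, -1.78 without replicate 1), 1.73 (adjusted p = 0.00166, SE 0.19, -1.61 without replicate 1) and 1.81 (adjusted p = 0.00397, SE 0.24, -1.74 without replicate 1). Pcp4, a small regulator of calmodulin, read 4.80, 6.50 and 6.18 in ε/ε and 8.18, 8.31 and 8.17 in wild-type cells and fell by 2.40 (adjusted p = 0.00995, SE 0.39), or by 1.88 without replicate 1. Grap2, an adaptor of antigen receptor signalling known from T cells, read 4.18, 6.14 and 4.95 in ε/ε and 6.95, 7.06 and 7.48 in wild-type cells and fell by 2.07 (adjusted p = 0.0157, SE 0.39, -1.62 without replicate 1). Both were lowest on replicate 1. Pcp4 lost the call on leaving out wild-type replicate 2 (adjusted p = 0.0505) and Grap2 without wild-type replicate 2 or 3 (largest 0.0701).

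The largest falls among the named protein-coding genes were those of Cldn34b3, of the claudin family, and Dennd5b, which activates Rab GTPases. Cldn34b3 read 2.32, 3.10 and 1.61 in ε/ε and 5.78, 7.24 and 6.63 in wild-type cells and fell by 4.21 (adjusted p = 0.00127, SE 0.42, -4.20 without replicate 1). Dennd5b read 3.89, 5.10 and 3.77 in ε/ε and 7.24, 7.16 and 7.27 in wild-type cells and fell by 2.97 (adjusted p = 0.00152, SE 0.32, -2.79 without replicate 1), with -2.26 for the mean of its probe sets. That the genotypes did not overlap in either was required by the rule that named them. Smaller falls were those of Xkrx by 1.84, Chil5 by 1.72, Trim59 by 1.79 and Zfp873 by 2.0. Xkrx is an XK-related membrane protein and Chil5 a chitinase-like protein. Trim59 was lowest on replicate 3, reading 7.54, 7.45 and 6.09 in ε/ε and 8.96, 8.80 and 8.68 in wild-type cells. It lost the call on leaving out wild-type replicate 2 or 3 (largest adjusted p 0.0621), and Zfp873 without wild-type replicate 2 (0.0734).

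**Figure D4:**
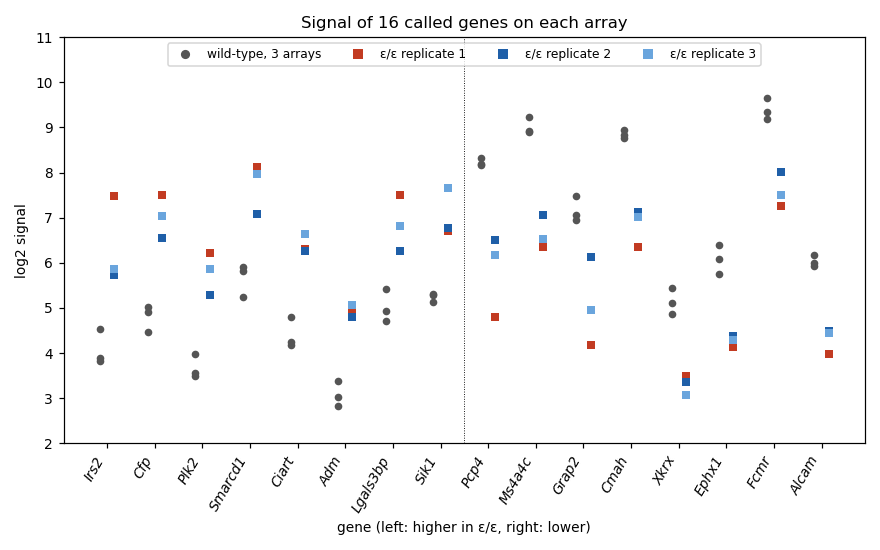
Log2 signal of 16 called genes on the 3 wild-type arrays (grey circles) and on ε/ε replicates 1 (red), 2 (dark blue) and 3 (light blue). The genotypes do not overlap in any of the 16, which the rule that named them required. Replicate 1 stands apart within ε/ε in Irs2 (7.49 against 5.73 and 5.87) and Pcp4 (4.80 against 6.50 and 6.18).

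The brightest Ighm probe set read 11.03, 10.91 and 11.01 in ε/ε and 11.27, 11.56 and 11.27 in wild-type cells, differing by -0.38 (adjusted p = 0.345, SE 0.24), which did not pass the threshold. Its 7 probe sets disagreed: their mean differed by -2.06, which passed. Cd79a read 10.09, 10.22 and 10.02 in ε/ε and 9.64, 8.40 and 9.07 in wild-type cells and Cd79b 10.76, 10.74 and 10.50 in ε/ε and 10.50, 10.25 and 10.50 in wild-type cells. Their differences of 1.07 (adjusted p = 0.0568, SE 0.29) and 0.25 (adjusted p = 0.326, SE 0.15) did not pass the threshold. Of 27 genes of the receptor's signalling chain 2 rose and 1 fell (11.1%, beside 6.34% of all genes), with a median of 0.031 beside -0.013 over all genes. The 1 that fell was Tec, a kinase related to Btk, which read 6.99, 7.82 and 7.29 in ε/ε and 8.64, 8.63 and 8.52 in wild-type cells and fell by 1.23 (adjusted p = 0.0119, SE 0.21, -1.04 without replicate 1). Blnk, the scaffold below Syk, read 8.93, 9.32 and 9.16 in ε/ε and 8.51, 8.18 and 8.36 in wild-type cells and rose by 0.79 (adjusted p = 0.0156, SE 0.15, 0.89 without replicate 1). Syk read 8.03, 7.99 and 8.0 in ε/ε and 7.66, 6.94 and 7.24 in wild-type cells and rose by 0.73 (adjusted p = 0.0377, SE 0.17, 0.72 without replicate 1). The ε/ε arrays of Syk agreed within 0.05, and its wild-type arrays spread from 6.94 to 7.66. Syk was called in only 2 of the 9 fits with an array left out, missing the threshold without any 1 of the ε/ε arrays, γ1/γ1 replicate 2 or 3 or wild-type replicate 2 or 3 (largest adjusted p 0.128). Blnk lost it on leaving out wild-type replicate 2 or 3 (largest 0.0705) and Tec without wild-type replicate 2 (0.0557).

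Transcription factors of the B lineage were called in both directions. Of 30 tested 5 rose and 2 fell (23.3%, beside 6.34% of all genes), with a median of 0.25 and array medians of -0.011, 0.18 and 0.32. Pou2af1, the coactivator OBF-1 of octamer factors, read 9.48, 10.01 and 9.57 in ε/ε and 8.58, 7.44 and 8.17 in wild-type cells. Tcf3, which encodes the E2A proteins, read 6.74, 6.64 and 6.82 in ε/ε and 5.42, 4.99 and 5.59 in wild-type cells. Spib, an Ets factor that works with PU.1, read 7.36, 8.11 and 8.30 in ε/ε and 7.08, 5.86 and 6.21 in wild-type cells. They rose by 1.62 (adjusted p = 0.00976, SE 0.27, 1.73 without replicate 1), 1.40 (adjusted p = 0.00896, SE 0.23, 1.40 without replicate 1) and 1.54 (adjusted p = 0.0253, SE 0.33, 1.82 without replicate 1). In Pou2af1 and Spib ε/ε replicate 1 was the ε/ε array nearest to wild-type. Runx3, Spi1 and Mef2c were named after their values were seen. Runx3 read 5.71, 5.53 and 5.41 in ε/ε and 4.46, 4.36 and 4.33 in wild-type cells and rose by 1.16 (adjusted p = 0.00238, SE 0.14, 1.09 without replicate 1). Spi1, which encodes PU.1, rose by 0.62 (adjusted p = 0.0431) but only 1 of the 9 fits with an array left out called it (the fit without wild-type replicate 1; largest 0.138 in the others). Zfp318, which controls IgD, fell by 1.98, and Mef2c, a factor of B cell activation, fell by 0.82 (adjusted p = 0.0139). Spib lost the call on leaving out wild-type replicate 2 or 3 or ε/ε replicate 2 or 3 (largest adjusted p 0.104), and Mef2c without wild-type replicate 3 (0.0504).

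Of 21 marker genes of the marginal zone subset tested 8 rose and 0 fell (38.1%, beside 6.34% of all genes), and the same count rose without replicate 1. Their median was 0.26, with 0.28, 0.55 and 0.27 on the 3 ε/ε arrays. Like all lists here, this one was chosen with earlier results of these data known, so its count is not independent of them. Beside Il9r, Ackr3, Myof and Ptpn14, the list includes a pair of Notch targets. Hes1, a repressor induced by Notch, read 6.22, 5.90 and 5.83 in ε/ε and 5.0, 4.82 and 4.61 in wild-type cells. Dtx1, a ligase known as a Notch target of marginal zone cells, read 6.29, 6.48 and 6.39 in ε/ε and 5.57, 5.06 and 5.28 in wild-type cells. Both separated the genotypes on every array and rose by 1.17 (adjusted p = 0.00439, SE 0.16) and 1.08 (adjusted p = 0.00506, SE 0.15), or by 1.06 and 1.13 without replicate 1. Of all 23 Notch pathway genes tested these 2 rose and 0 fell (8.70%, beside 6.34% of all genes), with a median of 0.047. Of 17 follicular markers 1 rose and 4 fell (29.4%, beside 6.34% of all genes), with a median of -0.050 that was 0.12 under quantile normalization. Without replicate 1, 0 of them rose and 3 fell. Their medians on the 3 ε/ε arrays were -0.14, 0.14 and -0.028. Satb1, a chromatin organiser, read 5.73, 5.77 and 6.10 in ε/ε and 7.07, 6.81 and 6.69 in wild-type cells and fell by 0.99 (adjusted p = 0.0177, SE 0.19, -0.92 without replicate 1). It lost the call on leaving out ε/ε replicate 1 or any 1 of the wild-type arrays (largest adjusted p 0.0678). Cr2 and Fcer2a, whose proteins CD21 and CD23 are used to sort these subsets, were not called, reading 9.09, 9.15 and 9.20 in ε/ε and 8.99, 8.97 and 8.84 in wild-type cells for Cr2 and 9.97, 9.96 and 9.36 in ε/ε and 9.51, 9.14 and 9.02 in wild-type cells for Fcer2a.

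Genes of other B cell states gave few calls. Of 10 transitional markers and 9 plasma cell markers 0 were called. In both, the members of smallest p missed the threshold: Cd24a at -0.59 (adjusted p = 0.0742, SE 0.18) and Xbp1 at 0.96 (adjusted p = 0.0559, SE 0.26). Of 12 B1 cell markers 1 rose (Adm, above) and 1 fell, 16.7% beside 6.34% of all genes. The latter, Il5ra, a chain of the interleukin 5 receptor, read 3.95, 2.64 and 3.61 in ε/ε and 4.60, 4.30 and 4.68 in wild-type cells and fell by 1.12 (adjusted p = 0.0475, SE 0.29, -1.40 without replicate 1). Il5ra was called in only 1 of the 9 fits with an array left out, the fit without ε/ε replicate 1 (largest adjusted p 0.142 in the others). Of 8 germinal centre markers 1 was called (12.5%): Plxnb2 rose by 0.66 (adjusted p = 0.0341, SE 0.15, 0.70 without replicate 1). Plxnb2 was called in 2 of the 9 fits with an array left out, those without γ1/γ1 replicate 1 or 3 (largest adjusted p 0.107 in the others), and 0 of the list were called without ε/ε replicate 1. Of 30 cell cycle and replication genes 0 were called, with a median of -0.031.

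Of 27 immediate-early genes tested 10 rose and 0 fell (37.0%, beside 6.34% of all genes), and 6 rose and 0 fell without replicate 1. Their median was 0.99, with 1.12, 0.54 and 0.69 on the 3 ε/ε arrays and 0.75 without replicate 1, while the macrophage markers stood at 2.04, 0.48 and 0.18 on the same arrays, and their part was not tested. Jun, of AP-1, read 8.27, 7.87 and 6.99 in ε/ε and 5.76, 5.30 and 4.98 in wild-type cells. Junb read 7.51, 6.06 and 7.01 in ε/ε and 5.35, 4.62 and 5.30 in wild-type cells. Jund read 7.62, 7.28 and 7.88 in ε/ε and 6.52, 5.43 and 6.20 in wild-type cells. No ε/ε array overlapped the wild-type arrays in the 3 Jun genes, and no 1 ε/ε array was highest in all of them. They rose by 2.37 (adjusted p = 0.00745, SE 0.37), 1.77 (adjusted p = 0.0176, SE 0.34) and 1.54 (adjusted p = 0.0157, SE 0.29), with 1.03 for the mean of the Jund probe sets, and without replicate 1 the differences were 2.08, 1.44 and 1.53 (adjusted p = 0.024, 0.0426 and 0.0424). Junb and Jund lost the call on leaving out wild-type replicate 2 or 3 (largest adjusted p 0.0811 and 0.0565).

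The partner of the Jun proteins was highest on replicate 1. Fos read 6.97, 5.52 and 5.52 in ε/ε and 4.22, 4.28 and 4.52 in wild-type cells and rose by 1.67 (adjusted p = 0.0479, SE 0.43), but the difference was 1.18 without replicate 1 (adjusted p = 0.098), and it was called in only 1 of the 9 fits with an array left out, the fit without γ1/γ1 replicate 1 (largest 0.156 in the others). Klf4, a zinc finger factor that restrains proliferation, read 4.82, 4.55 and 4.82 in ε/ε and 3.65, 3.79 and 3.49 in wild-type cells and rose by 1.09 (adjusted p = 0.00745, SE 0.17, 1.04 without replicate 1). Myc, whose ε/ε arrays agreed within 0.03, read 8.06, 8.06 and 8.09 in ε/ε and 7.41, 7.09 and 7.42 in wild-type cells and rose by 0.76 (adjusted p = 0.0332, SE 0.18), with 0.76 without replicate 1 (adjusted p = 0.072). It lost the call too on leaving out ε/ε replicate 2 or 3 or any 1 of the wild-type arrays (largest adjusted p 0.133). Of 8 Egr and Nr4a genes, which receptor engagement is known to induce, 0 were called, and the member of smallest p, Egr2, lay lower in ε/ε: it read 5.0, 4.71 and 5.16 in ε/ε and 6.00, 5.60 and 5.56 in wild-type cells, differing by -0.76 (adjusted p = 0.0504, SE 0.20). Nr4a1, named after its values were seen, read 5.96, 4.99 and 4.99 in ε/ε and 5.06, 4.97 and 4.69 in wild-type cells, above the wild-type arrays on replicate 1 and near them on the other 2.

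Phosphatases that shut off MAP kinases are themselves targets of these signals. Of 11 tested 3 rose and 0 fell (27.3%, beside 6.34% of all genes). Dusp1 read 8.16, 7.24 and 7.46 in ε/ε and 6.30, 5.94 and 5.57 in wild-type cells. Dusp16, which acts on JNK, read 5.71, 5.13 and 5.94 in ε/ε and 4.45, 4.68 and 4.26 in wild-type cells. Both separated the genotypes, and they rose by 1.68 (adjusted p = 0.00607, SE 0.25) and 1.13 (adjusted p = 0.0163, SE 0.22), with 1.41 and 1.07 as differences without replicate 1. Dusp2 rose by 1.00. Dusp16 lost the call on leaving out wild-type replicate 3 (adjusted p = 0.0713), and Dusp2 without ε/ε replicate 1 or 3, any γ1/γ1 array or wild-type replicate 2 or 3 (largest 0.152). The cyclic AMP response element TGACGTCA, searched on both strands, lay in the 250 bases before the start of 2 of the 9 called immediate-early genes that had a promoter in RefSeq, Dusp1 and Ppp1r15a, and in 1.62% of 27025 promoters. The AP-1 motif TGANTCA lay in 0 of the 9 and in 6.87% of promoters. The Dusp1 window is shown because it holds the match, in capitals (GRCm38.p6, chr17:26508473-26508722, - strand).
Dusp1: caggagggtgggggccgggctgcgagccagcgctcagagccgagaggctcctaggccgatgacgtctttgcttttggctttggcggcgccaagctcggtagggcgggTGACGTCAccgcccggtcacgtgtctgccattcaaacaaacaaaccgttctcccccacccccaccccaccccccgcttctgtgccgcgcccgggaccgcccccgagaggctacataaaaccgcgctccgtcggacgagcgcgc

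Of 14 NF-κB subunits and inhibitors tested 4 rose and 0 fell (28.6%, beside 6.34% of all genes), with a median of 0.64 and array medians of 0.51, 0.55 and 0.70. Nfkb2, which encodes p100 and p52, read 6.82, 6.72 and 6.76 in ε/ε and 5.89, 4.99 and 5.27 in wild-type cells. Bcl3, a nuclear partner of p52, read 4.75, 4.71 and 5.27 in ε/ε and 4.27, 3.43 and 3.80 in wild-type cells. Nfkbie, the inhibitor IκBε, read 6.94, 6.96 and 5.97 in ε/ε and 5.86, 4.80 and 5.02 in wild-type cells. All had ε/ε arrays above the wild-type arrays, and wild-type replicate 1 was the highest of its group in each. They rose by 1.38 (adjusted p = 0.00899, SE 0.22, 1.35 without replicate 1), 1.08 (adjusted p = 0.022, SE 0.22, 1.16 without replicate 1) and 1.40 (adjusted p = 0.044, SE 0.35, 1.24 without replicate 1). Nfkbia, the inhibitor IκBα, read 7.96, 8.18 and 7.63 in ε/ε and 7.34, 7.05 and 7.36 in wild-type cells and rose by 0.68 (adjusted p = 0.0438, SE 0.17, 0.66 without replicate 1), but was called in only 1 of the 9 fits with an array left out (largest adjusted p 0.159), the fit without ε/ε replicate 3. Nfkbie lost the call on leaving out ε/ε replicate 1 or 2, γ1/γ1 replicate 2 or 3 or wild-type replicate 2 or 3 (largest 0.166), and Bcl3 without wild-type replicate 2 or 3 or ε/ε replicate 3 (largest 0.0854).

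The windows before Nfkb2 and Nfkbie show where the NF-κB consensus matched, in capitals. The consensus, searched on both strands, lay in 3 of the 4 called genes (Nfkb2, Nfkbia and Nfkbie) and in 3.75% of 27025 promoters. As for the other motifs here, the members of the list that were not called were not counted. Whether the motif goes with the rise was therefore not tested. In Nfkb2 it matched 3 times, with 2 matches overlapping. The windows lie at chr19:46304487-46304736, + strand for Nfkb2 and chr17:45555450-45555699, + strand for Nfkbie (GRCm38.p6, RefSeq), and a match does not show that a factor binds there.
Nfkb2: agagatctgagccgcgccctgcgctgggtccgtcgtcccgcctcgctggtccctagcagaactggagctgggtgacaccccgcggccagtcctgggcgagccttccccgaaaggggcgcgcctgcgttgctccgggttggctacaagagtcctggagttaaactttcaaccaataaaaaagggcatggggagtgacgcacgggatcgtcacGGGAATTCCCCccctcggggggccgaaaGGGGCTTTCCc
Nfkbie: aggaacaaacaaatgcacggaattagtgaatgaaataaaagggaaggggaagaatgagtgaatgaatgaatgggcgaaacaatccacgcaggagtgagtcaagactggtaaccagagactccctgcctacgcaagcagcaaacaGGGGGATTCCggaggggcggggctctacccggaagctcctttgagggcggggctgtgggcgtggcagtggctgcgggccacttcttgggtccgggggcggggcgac

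Adaptors below TNF receptors included Traf1, which read 6.11, 6.15 and 6.20 in ε/ε and 4.82, 4.63 and 4.51 in wild-type cells and rose by 1.5 (adjusted p = 0.00404, SE 0.20, 1.52 without replicate 1). Of 15 genes of this family 2 rose and 1 fell (20.0%, beside 6.34% of all genes), and 1 rose and 1 fell without replicate 1. The other calls were Traf4, which rose by 1.02, and Birc2, which fell by 0.65. Traf4 lost the call without replicate 1 (adjusted p = 0.0789). Traf4 was called in 3 and Birc2 in 1 of the 9 fits with an array left out (largest adjusted p 0.124 and 0.147). Of 11 genes of the Bcl2 family 0 rose and 2 fell (18.2%), Bcl2 and Mcl1. Bcl2 read 5.66, 6.18 and 6.34 in ε/ε and 7.68, 7.70 and 7.76 in wild-type cells, lowest on replicate 1, and without that array it fell by 1.45 in place of 1.66. With the mean of its probe sets Bcl2 differed by -1.15. Mcl1 read 8.98, 9.08 and 9.02 in ε/ε and 9.80, 9.91 and 9.98 in wild-type cells and fell by 0.87 (adjusted p = 0.00753, SE 0.14, -0.85 without replicate 1), with -0.48 for the mean of its probe sets.

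Of 20 heat shock chaperones tested 4 rose and 0 fell (20.0%, beside 6.34% of all genes). The counts were the same without replicate 1. The list median was 0.63, 0.16 and -0.043 on the 3 ε/ε arrays, 0.27 in all and -0.0008 without replicate 1. The macrophage markers, at 2.04, 0.48 and 0.18, were highest on the same array, and their part in the list median was not tested. Hspb1, a small heat shock protein, read 5.08, 4.85 and 4.19 in ε/ε and 3.23, 3.10 and 3.07 in wild-type cells. Hsph1, of the Hsp110 family, read 8.08, 7.26 and 7.46 in ε/ε and 6.12, 6.25 and 6.60 in wild-type cells. Stip1, which links Hsp70 to Hsp90, read 7.75, 7.0 and 7.35 in ε/ε and 6.31, 6.18 and 6.31 in wild-type cells. The genotypes did not overlap, and the genes rose by 1.57 (adjusted p = 0.00558, SE 0.23), 1.28 (adjusted p = 0.0184, SE 0.25) and 1.10 (adjusted p = 0.0137, SE 0.20). Dnajb1 rose by 1.36. The differences without replicate 1 were 1.38, 1.04, 0.91 and 1.19. With the mean of its probe sets Hspb1 differed by 1.03. Hsph1 lost the call on leaving out wild-type replicate 1 or 2 (largest adjusted p 0.0804), Stip1 without wild-type replicate 2 or 3 (largest 0.0656) and Dnajb1 without wild-type replicate 3 (0.0586). The heat shock half-site pair GAANNTTC lay before 1 of these 4 genes, Hspb1, and in 6.78% of 27025 promoters. It is in capitals in the Hspb1 window, where it occurs 2 times (GRCm38.p6, chr5:135887669-135887918, + strand, RefSeq).
Hspb1: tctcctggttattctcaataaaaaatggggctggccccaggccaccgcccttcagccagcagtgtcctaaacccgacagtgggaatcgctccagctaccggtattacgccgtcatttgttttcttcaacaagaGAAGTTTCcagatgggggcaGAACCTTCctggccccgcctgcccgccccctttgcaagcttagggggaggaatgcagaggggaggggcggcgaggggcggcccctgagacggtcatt

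Genes of Toll-like receptors were called in both directions. Tlr9, the endosomal receptor of CpG DNA, read 7.94, 8.39 and 8.51 in ε/ε and 7.69, 6.74 and 6.70 in wild-type cells. Unc93b1, the chaperone that carries Tlr9 to endosomes, read 8.33, 8.91 and 8.70 in ε/ε and 7.92, 7.0 and 7.58 in wild-type cells. Tlr1, a surface receptor of lipopeptides, read 7.33, 8.28 and 7.66 in ε/ε and 8.99, 9.07 and 9.24 in wild-type cells. Tlr9 and Unc93b1 rose by 1.24 (adjusted p = 0.0303, SE 0.28, 1.41 without replicate 1) and 1.15 (adjusted p = 0.0207, SE 0.23, 1.31 without replicate 1), and Tlr1 fell by 1.34 (adjusted p = 0.00886, SE 0.22, -1.13 without replicate 1). In all 3 genes the genotypes did not overlap. Replicate 1 was the ε/ε array nearest to wild-type in Tlr9 and Unc93b1 and the farthest in Tlr1. These were the 3 called of 17 tested (17.6%, beside 6.34% of all genes). Tlr9 and Unc93b1 lost the call on leaving out wild-type replicate 2 or 3 or ε/ε replicate 2 or 3 (largest adjusted p 0.128 and 0.0674).

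Of 20 genes of MHC class I presentation 3 rose and 0 fell, and without replicate 1 only H2-K1 was still called. H2-K1, a classical class I chain with close relatives, read 7.67, 7.80 and 7.76 in ε/ε and 7.21, 7.04 and 7.13 in wild-type cells and rose by 0.62 (adjusted p = 0.02, SE 0.12, 0.65 without replicate 1). Tapbp, tapasin of the peptide loading complex, read 6.70, 6.28 and 6.50 in ε/ε and 5.61, 5.57 and 4.90 in wild-type cells and rose by 1.13 (adjusted p = 0.0183, SE 0.22, 1.03 without replicate 1). H2-K1 lost the call on leaving out wild-type replicate 2 or 3 (largest adjusted p 0.0822) and Tapbp without wild-type replicate 2 or 3 or ε/ε replicate 1 (largest 0.0622). Of 17 class II presentation genes 0 were called, with a median of 0.12. Of 26 interferon-stimulated genes 1 was called (3.85%): the guanylate-binding protein gene Gbp7 rose by 0.98 (adjusted p = 0.0147, SE 0.18, 0.98 without replicate 1). Gbp7 lost the call on leaving out wild-type replicate 3 (0.0654).

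Receptors that place B cells in the follicle and integrins were called in both directions. Ccr6, the receptor of CCL20, read 6.41, 6.98 and 6.57 in ε/ε and 7.92, 7.66 and 7.86 in wild-type cells. P2ry10, a lysophospholipid receptor, read 6.53, 6.80 and 6.59 in ε/ε and 7.33, 7.57 and 7.53 in wild-type cells. Both fell, by 1.16 (adjusted p = 0.0108, SE 0.20, -1.04 without replicate 1) and 0.84 (adjusted p = 0.00902, SE 0.14, -0.78 without replicate 1). Ackr3, which scavenges CXCL12, was the 1 that rose of 14 such receptors, and 21.4% of them were called, beside 6.34% of all genes. Itgb3, the β3 integrin chain, read 5.84, 5.96 and 6.37 in ε/ε and 4.21, 5.0 and 4.30 in wild-type cells and rose by 1.55 (adjusted p = 0.00859, SE 0.25, 1.66 without replicate 1). Itga6, the α6 chain, read 3.44, 4.03 and 3.83 in ε/ε and 4.65, 4.69 and 4.86 in wild-type cells and fell by 0.96 (adjusted p = 0.0119, SE 0.17, -0.80 without replicate 1). The genotypes did not overlap in these 4 genes. Itga6 and Ccr6 lost the call on leaving out wild-type replicate 3 (adjusted p = 0.0549 and 0.0508).

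Few genes of the cell's core machinery were called. Of 75 genes of the respiratory chain and ATP synthase 0 rose and 3 fell (4.0%, beside 6.34% of all genes), yet only 15 of the 75 lay above 0. Their median was -0.31, with -0.38, -0.16 and -0.24 on the ε/ε arrays, -0.22 without replicate 1 and -0.16 under quantile normalization. Brighter genes lay lower as a set: with the filter at percentile 75 of each array the median was -0.11, beside -0.013 over all genes tested. What part this had in the list medians of this and the next paragraph was not tested. Ndufs1, a core subunit of complex I, read 5.50, 5.73 and 5.75 in ε/ε and 6.28, 6.48 and 6.36 in wild-type cells and fell by 0.71 (adjusted p = 0.0183, SE 0.14, -0.63 without replicate 1). Atp5l, of ATP synthase, read 10.45, 10.37 and 10.32 in ε/ε and 10.94, 11.09 and 11.05 in wild-type cells and fell by 0.64 (adjusted p = 0.0301, SE 0.15, -0.68 without replicate 1). Their genotypes did not overlap. Ndufs1 lost the call on leaving out wild-type replicate 2 or 3 (largest adjusted p 0.0804), and Atp5l without any 1 of the ε/ε or wild-type arrays (largest 0.113). Of 69 mitochondrial ribosomal proteins 1 fell (1.45%), with a median of -0.20 and 0.0019 on replicate 2. Of 46 proteasome subunits 1 rose and 2 fell (6.52%), with a median of -0.22. Of 63 cytosolic ribosomal proteins 1 rose and 1 fell (3.2%), with a median of -0.021 that was 0.06 under quantile normalization. Psme2, of the PA28 activator, was the proteasome gene that rose, by 0.96 (adjusted p = 0.0284, SE 0.21, 1.14 without replicate 1), and Psma3, of the core, fell by 0.74. Psme2 lost the call on leaving out ε/ε or wild-type replicate 2 or 3 (largest adjusted p 0.114), and Psma3 without wild-type replicate 2 or 3 or ε/ε replicate 3 (largest 0.1).

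Of 35 splicing factors tested 1 rose and 4 fell (14.3%, beside 6.34% of all genes). Of the 35, 7 lay above 0, or 10 under quantile normalization, where 3 were called. The median was -0.25, with -0.28, -0.30 and -0.15 on the 3 ε/ε arrays and -0.24 without replicate 1. Srsf10 read 5.89, 6.01 and 6.15 in ε/ε and 6.87, 7.09 and 7.19 in wild-type cells. Srsf9 read 6.06, 6.28 and 6.39 in ε/ε and 7.04, 7.02 and 6.99 in wild-type cells. These SR proteins, which choose splice sites, separated the genotypes on every array and fell by 1.04 (adjusted p = 0.00511, SE 0.15, -0.97 without replicate 1) and 0.77 (adjusted p = 0.0119, SE 0.13, -0.68 without replicate 1). Srsf6 and Srsf1 fell too, by 1.00 and 0.55, with -0.48 and -0.16 for the means of their probe sets. Srsf1 was named after its values were seen, and it lost the call on leaving out ε/ε replicate 1 or 2 or any 1 of the wild-type arrays (largest adjusted p 0.0951). Ptbp1, a repressor of exon inclusion, rose by 0.85 (adjusted p = 0.0446, SE 0.21, 0.89 without replicate 1). Srsf9 lost the call on leaving out wild-type replicate 2 (adjusted p = 0.0505), Srsf6 without ε/ε replicate 1 or 2, γ1/γ1 replicate 2 or wild-type replicate 2 or 3 (largest 0.157), and Ptbp1 without any 1 of the arrays other than wild-type replicate 1 (largest 0.153).

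**Figure D5:**
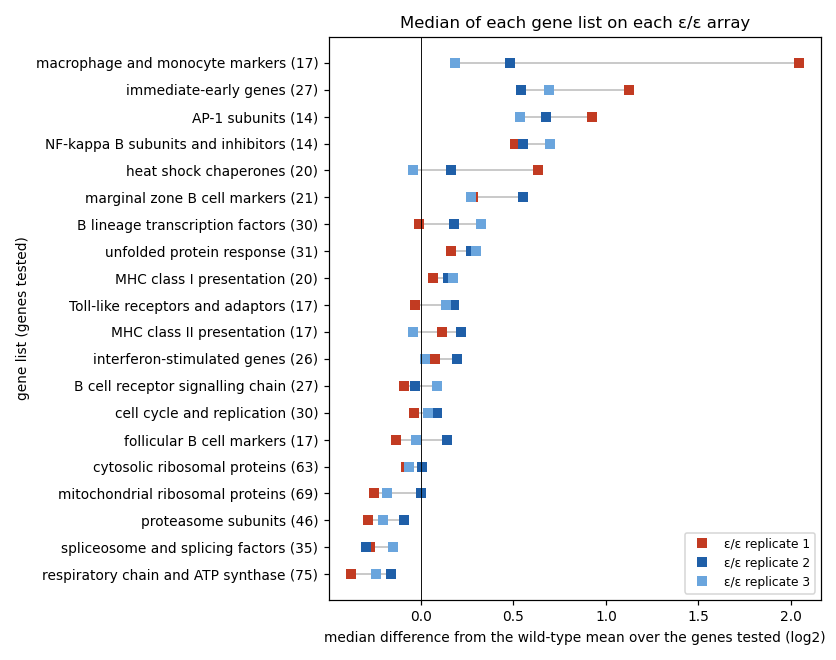
Median difference from the wild-type mean of the tested genes of 20 lists, for ε/ε replicates 1 (red), 2 (dark blue) and 3 (light blue), in log2. Macrophage markers (2.04, 0.48 and 0.18) and heat shock chaperones (0.63, 0.16 and -0.043) are spread over the arrays, while NF-κB genes lie above 0 and respiratory chain genes below 0 on all 3.

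Signalling and lipid genes gave scattered calls. Of 25 genes of PI3K, AKT and FOXO signalling 2 rose, Irs2 and Akt1, and 0 fell (8.0%, beside 6.34% of all genes). Akt1 read 4.77, 4.88 and 5.05 in ε/ε and 4.33, 4.12 and 4.22 in wild-type cells and rose by 0.68 (adjusted p = 0.0263, SE 0.15, 0.74 without replicate 1). Of 22 cholesterol and fatty acid genes 4 rose and 0 fell (18.2%), but 1, Fabp5, was called without replicate 1. Fabp5, a fatty acid carrier also known from macrophages, read 7.38, 6.07 and 6.28 in ε/ε and 3.81, 4.69 and 4.10 in wild-type cells and rose by 2.38 (adjusted p = 0.00745, SE 0.37), with 1.98 without replicate 1 (adjusted p = 0.0154) and 1.42 for the mean of its probe sets. Srebf1, the factor that drives lipid synthesis, read 4.41, 4.63 and 4.56 in ε/ε and 4.03, 3.74 and 3.98 in wild-type cells and rose by 0.61 (adjusted p = 0.0396, SE 0.15, 0.67 without replicate 1). Psap, the precursor of lysosomal saposins, was the 1 of 22 autophagy and lysosome genes called (4.55%). It read 8.71, 8.01 and 8.16 in ε/ε and 7.14, 6.60 and 6.76 in wild-type cells and rose by 1.46 (adjusted p = 0.0067, SE 0.22), or by 1.25 without replicate 1. Of 18 glycolysis genes, where 5.56% were called, 0 rose and 1, the phosphofructokinase gene Pfkp, fell, by 1.02 (adjusted p = 0.0208, SE 0.21, -0.99 without replicate 1). Akt1 lost the call on leaving out ε/ε replicate 3 or any 1 of the wild-type arrays (largest adjusted p 0.104). Pfkp lost it on leaving out wild-type replicate 2 or 3 or ε/ε replicate 1 or 3 (largest 0.0826), and Srebf1 without any 1 of the ε/ε or wild-type arrays or γ1/γ1 replicate 2 (largest 0.149).

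Among the protein-coding genes called only with replicate 1, the largest differences were of H2-Q10, Lilrb4a, Ifi208 and Crisp3. Ifi208, an interferon-inducible gene, read 6.75, 4.80 and 5.99 in ε/ε and 3.85, 3.76 and 4.40 in wild-type cells and rose by 1.84 (adjusted p = 0.0421, SE 0.45), with 1.39 without replicate 1 (adjusted p = 0.1). Crisp3, a cysteine-rich secretory protein, read 2.90, 3.82 and 3.58 in ε/ε and 5.80, 5.16 and 4.82 in wild-type cells and fell by 1.83 (adjusted p = 0.0251, SE 0.39), with -1.56 without replicate 1 (adjusted p = 0.0732). Lilrb4a, an inhibitory receptor, read 6.06, 6.30 and 6.06 in ε/ε and 4.20, 2.96 and 5.33 in wild-type cells and rose by 1.98 (adjusted p = 0.0494, SE 0.51), with 2.02 without replicate 1 (adjusted p = 0.1). Its ε/ε arrays agreed within 0.25 while the wild-type arrays were widely spread, and it was called in 1 of the 9 fits with an array left out, the fit without wild-type replicate 3 (largest 0.141 in the others). Naip6, an inflammasome receptor, read 4.48, 3.70 and 4.07 in ε/ε and 2.61, 2.30 and 2.78 in wild-type cells and rose by 1.52 (adjusted p = 0.0221, SE 0.31), with 1.32 without replicate 1 (adjusted p = 0.0655). Ifi208, Crisp3 and Naip6 lost the call on leaving out any 1 of the wild-type arrays too (largest adjusted p 0.153, 0.0873 and 0.0984), Ifi208 and Naip6 without ε/ε replicate 3, and Ifi208 without γ1/γ1 replicate 1 or 2. The other calls of this kind with the largest size were Olfr484, Fos and Rnf122.

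On ε/ε replicates 2 and 3 the genes apart alone were fewer and had other leaders. Osm, a cytokine, read 3.90, 5.47 and 3.95 in ε/ε cells and was high on replicate 2. Fas, the death receptor, read 4.45, 5.61 and 4.17 and was high on the same array. The wild-type arrays read 4.15, 3.86 and 3.34 for Osm and 4.16, 4.20 and 4.0 for Fas. Gimap4, a GTPase of lymphocytes, read 8.65, 8.72 and 7.11 and was low on replicate 3. Rgs13, a regulator of G protein signalling of germinal centre cells, read 4.33, 4.33 and 2.75 and was low on that array too. The wild-type arrays read 9.27, 8.95 and 9.17 for Gimap4 and 4.30, 4.68 and 4.20 for Rgs13.

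Gene families that are little used in B cells held calls as well. Of 1105 olfactory receptor genes on the array 119 were tested, and 8 rose and 13 fell (17.6%, beside 6.34% of all genes). As with the microRNA genes, dim genes that passed the filter through 1 genotype can raise this share. Olfr310 read 9.87, 8.33 and 8.64 in ε/ε and 3.99, 5.30 and 5.05 in wild-type cells, Olfr128 5.32, 5.27 and 5.16 in ε/ε and 3.06, 3.3 and 2.73 in wild-type cells and Olfr1219 3.28, 2.83 and 3.26 in ε/ε and 5.64, 5.57 and 5.42 in wild-type cells. The genotypes did not overlap in these 3 genes, which changed by 4.17, 2.22 and -2.42 (limma adjusted p = 0.0022, 0.00204 and 0.00288). Of 60 small nucleolar RNA genes, whose products guide RNA modification, 2 rose and 5 fell (11.7%). Snord87 read 4.55, 6.29 and 4.97 in ε/ε and 7.17, 7.78 and 8.13 in wild-type cells and fell by 2.42 (adjusted p = 0.0115, SE 0.41, -2.06 without replicate 1). Snora69 read 3.84, 4.02 and 1.85 in ε/ε and 5.41, 5.87 and 6.13 in wild-type cells and fell by 2.57 (adjusted p = 0.0153, SE 0.48, -2.87 without replicate 1). Both lost the call on leaving out wild-type replicate 2 or 3 (largest adjusted p 0.0557 and 0.0687). Of 13 histone genes 2 rose (15.4%), H2bc3 and H2bc14, by 1.41 and 1.08. Both lost the call on leaving out γ1/γ1 or wild-type replicate 2 or 3 and H2bc14 also without replicate 1 of either (largest adjusted p 0.131 and 0.146). Families of this kind hold near-identical copies, and which member was read is uncertain.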

How the data were processed

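All 9 single-colour arrays were analysed, per the labels of total RNA extracted with TRIzol from sorted cells, amplified with a Nugen PicoWTA kit and labelled with biotin. The authors deposited processed values, read here as log2 signals, 1 per probe set and array. The submitters' processing notes name R 3.3.1, and no source used here states the background correction or normalization. That the scale is log2 was read from the values, whose array medians lay between 3.53 and 3.69. No scanner files were analysed here, and the number of arrays limits the precision.

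The platform annotation gave 23521 probe sets 1 symbol and 1814 several, and 16010 were unnamed here. For each gene the brightest of its probe sets with a single symbol was kept, and 10010 dim genes were set aside. All 9 arrays entered 1 model in limma 3.58.1 (R 4.3.3) with 1 mean per genotype, and ε/ε minus wild-type was tested with eBayes and Benjamini-Hochberg adjustment over 12170 genes. Every adjusted p in the text is from limma. The same fit was made without ε/ε replicate 1. Lists are described by counts and medians without a test. Named genes were the 15 highest and 15 lowest protein-coding genes called in both fits without overlap of the genotypes and with the higher mean at least 1 above the median of all probe sets, leaving out olfactory and vomeronasal receptor genes and genes known only by a Gm number or Rik clone, the 4 highest and 4 lowest microRNA genes, up to 4 called members of a list (or the 2 of smallest p), the leading genes apart on 1 array (12, 8 and 8), the 8 largest protein-coding calls made only with replicate 1, and Ighm, Cd79a and Cd79b. Not every gene the rule names is printed. Genes, lists and rules were chosen with earlier results of these data known. Sequences are RefSeq's for GRCm38.p6, matched by gene identifier: 136 of the 163 microRNA genes tested that this table lists as microRNAs had a mature sequence. Figures were drawn with matplotlib 3.10.9.

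In data simulated for the 12170 genes of this comparison, the fit recovered 69 of 100 genes given a log2 change of 1 and 95 of 100 given 2, with 9 false among 173 calls, and 0 genes were called when none was changed. Each simulated gene was drawn on its own from a normal distribution with 1 SD for all 9 arrays. The real arrays had unequal weights (0.49 for ε/ε replicate 1, 1.89 for wild-type replicate 3), and macrophage markers rose together on 1 of them. These counts therefore do not show how many of the 772 calls are false.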

Additional observations from a re-analysis of the deposited data

How the results depend on the processing

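The 772 calls (283 higher, 489 lower) stayed within 1.5 times under most alternatives, from 603 without a filter to 932 with array weights. Exceptions were the fit of only the 6 arrays compared (424, 154 higher and 270 lower), quantile normalization for the lower calls (300.0), an absolute difference of at least 1 (347, 155 higher and 192 lower) and an adjusted p under 0.1 (1626, 635 higher and 991 lower). With 1 array left out the counts ran from 186 to 789, from 71 to 286 for higher and from 115 to 503 for lower calls. Genes apart on 1 ε/ε array alone numbered 11, 0 and 4 with a size of 2. The titles share replicate numbers, but same-numbered ε/ε and wild-type arrays did not deviate together (correlations of -0.041, -0.038 and 0.0060 over genes), while those of ε/ε and γ1/γ1 arrays were 0.047, 0.156 and 0.047, each the highest for its array. As not every pair passed 0.1, the numbers were not taken to pair the arrays. With the replicate block 668 genes were called, 238 higher and 430 lower, and 33 of the 141 named genes called missed the threshold. No named gene that was called turned direction under the alternatives that tested it, which being called made likely beforehand. Of these 141, the call was lost by 87 when wild-type replicate 2 was left out, by 82 for wild-type replicate 3, by 41 for ε/ε replicate 1, by 52 in the fit of 6 arrays and by 13 under quantile normalization. The cause was not tested.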

Other observations

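Adjacent genes were called together at several places in the gene order of GRCm38.p6. Among the genes tested, 7 runs of at least 3 neighbours were called in 1 direction, 5 of them lower. Beyond the microRNA and Ms4a runs, Dleu2, Kcnrg and Mir15a stood side by side. Dleu2, the RNA from which Mir15a is processed, read 5.75, 5.63 and 5.17 in ε/ε and 6.54, 6.70 and 6.27 in wild-type cells and fell by 0.98 (adjusted p = 0.0394, SE 0.24, -1.10 without replicate 1) in limma, with -0.76 for the mean of its probe sets. Kcnrg read 2.55, 3.28 and 3.56 in ε/ε and 4.54, 4.93 and 5.04 in wild-type cells and fell by 1.71 (adjusted p = 0.00896, SE 0.28, -1.41 without replicate 1). Dleu2 lost the call on leaving out any 1 of the ε/ε or wild-type arrays or γ1/γ1 replicate 2 (largest adjusted p 0.151). Lynx1, Ly6d and Ly6k, of the Ly6 family, were the other run that rose. Lynx1 read 7.75, 8.74 and 9.58 in ε/ε and 7.79, 6.05 and 6.12 in wild-type cells, with replicate 1 within the wild-type range, and rose by 2.04 (adjusted p = 0.0438, SE 0.51, 2.51 without replicate 1). Ly6d, a marker of early B lineage cells, read 10.15, 10.71 and 10.69 in ε/ε and 9.94, 9.05 and 9.24 in wild-type cells and rose by 1.11 (adjusted p = 0.0289, SE 0.25, 1.29 without replicate 1). Ly6k rose by 1.25 (adjusted p = 0.0315, SE 0.29, 1.16 without replicate 1), and its probe sets averaged differed by 0.54. Ly6d was called in 5, Ly6k in 3 and Lynx1 in 2 of the 9 fits with an array left out (largest adjusted p 0.119, 0.113 and 0.166). These genes were named after their values were seen, and overlapping genes of the Dleu2 locus cannot be told apart without knowing which strand a probe set reads.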
